A study of Caenorhabditis elegans with 2 samples.

Results

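Isolated SCC-1 peaks are called peaks of the cohesin subunit SCC-1 that stand alone in the peak list. Their midpoints lie more than 20 kb from those of the next called peaks on either side. They were chosen from the authors' peak list of 1 chromatin immunoprecipitation library by a rule on position. A peak was taken when its midpoint lay more than 20000 bp from the midpoints of both the previous and the next peak, and the first and last peaks of each chromosome were left out. The rule found 392 isolated peaks among 6780, or 5.78% of the list. The other 6388 peaks comprised 2034 with a distance over 20 kb on 1 side, 4342 with such a distance on neither side, and 12 at the ends of the chromosomes.

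SCC-1 is the kleisin of mitotic cohesin in Caenorhabditis elegans, the subunit that closes the ring formed by the SMC-1 and SMC-3 proteins and that separase cuts when sister chromatids part. Cohesin holds sister chromatids together, and in interphase it also shapes chromatin into loops. In worm autosomes the central regions are rich in genes, whereas the arms are rich in repeats and have more meiotic recombination. The X chromosome is bound along its length by the dosage compensation complex in somatic cells of hermaphrodites and is largely silent in the germline.

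The material was whole adult hermaphrodites of the strain fem-2(b245), genotype fem-2(b245)III, kept at 20 °C. FEM-2 is a phosphatase that acts in sex determination. The labels call the stage a young adult with a germline, while the growth protocol speaks of gravid adults, and no strain without the allele was in the samples. The SCC-1 ChIP group had 1 library, made with 5 µg of a rabbit polyclonal antibody, and the input group had 1 library from 10 ng of DNA, both from extract fixed with 1% formaldehyde for 10 min. The antibody is affinity purified in the protocol but crude in its own label. Whole animals hold many cell types, so binding in a few cells and weak binding in many cells cannot be told apart. With 1 ChIP library there was no replicate, and no read counts were used, so the depth behind a peak is unknown. The position of a peak, its width and its score come from the same peak calls that the rule used. All comparisons are therefore descriptions with no test, and exact binomial 95% intervals of shares and order-statistic 95% intervals of medians cover counting error only.

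The X chromosome held more isolated peaks than any autosome. It carried 133 of the 392, or 33.9% with an interval from 29.3% to 38.9%, but only 5.87% of all other peaks. Among the autosomes chromosome V had 84 isolated peaks, chromosome IV had 65, chromosome II had 54, chromosome I had 33 and chromosome III had 23. Chromosome III held 5.87% of the isolated peaks and 21.5% of the others, and chromosome I held 8.42% of the isolated peaks and 22.5% of the others. On chromosome IV the shares were close to each other, 16.6% of the isolated peaks and 17.7% of the others.

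Read within each chromosome, 26.2% of the SCC-1 peaks of X were isolated, with an interval from 22.4% to 30.2%. The share was 7.71% on chromosome V, 5.44% on chromosome IV, 4.81% on chromosome II, 2.24% on chromosome I and 1.65% on chromosome III. The intervals of V and X did not overlap, while those of II and IV overlapped widely, from 3.64% to 6.23% and from 4.23% to 6.89%, as did those of I and III. This order is the reverse of the order in peak density, which ran from 101.2 peaks per Mb on chromosome III to 28.7 on X. A distance rule takes more of a sparse chromosome, so the order is in part fixed by the rule. In number per length, X had 7.51 isolated peaks per Mb of the span between its first and last peaks, against 3.14 on the autosomes, where it ran from 1.67 on chromosome III to 4.03 on chromosome V.

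**Figure D1:**
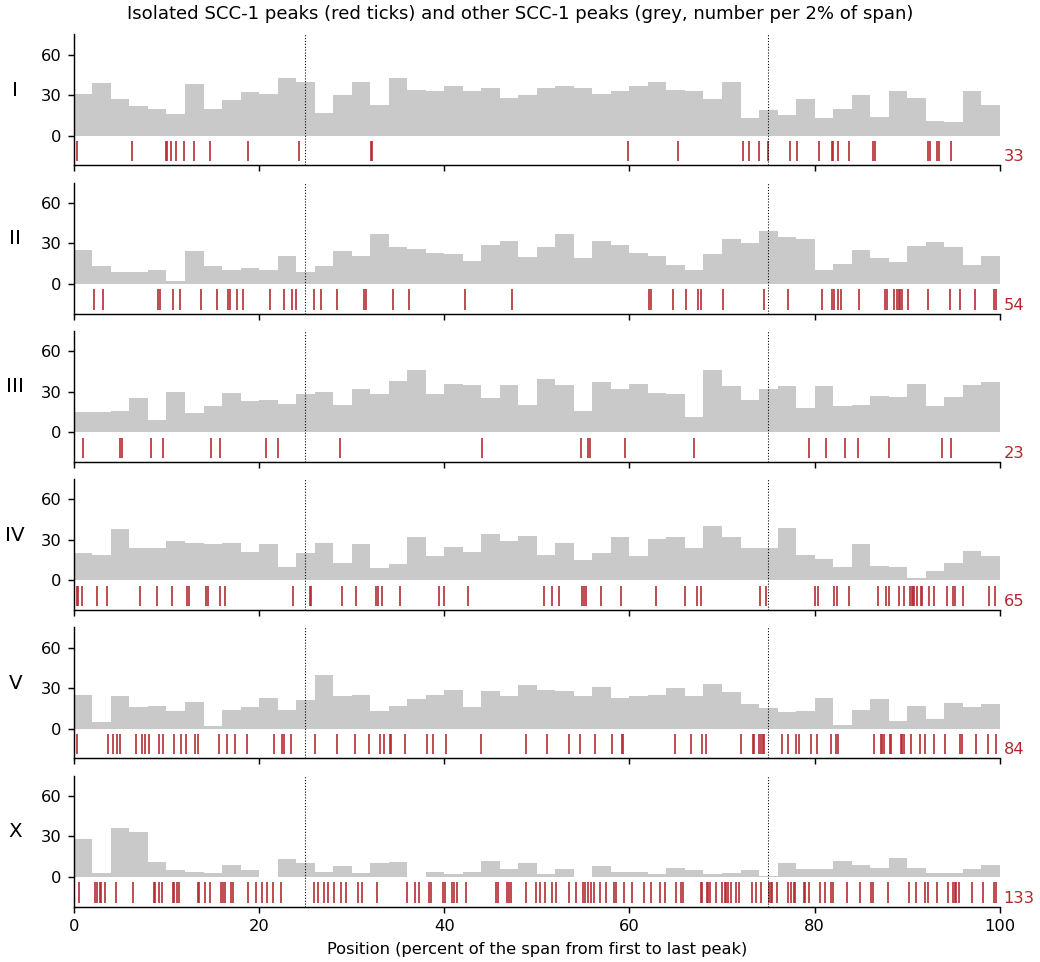
Position of the 392 isolated SCC-1 peaks (red ticks, with their number at the right) along each chromosome, as percent of the length between its outermost peaks, above which grey bars give the number of other peaks per 2% of the span. Dotted lines separate arms from centre. The centre has fewer ticks than the arms on all 5 autosomes, from 8 against 25 on chromosome I to 32 against 52 on chromosome V. On X it has 68 against 65.

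On the autosomes isolated peaks lay mainly in the arms, taken as 25% of the span on either side. Of 259 autosomal isolated peaks 170 were in the arms, or 65.6% with an interval from 59.5% to 71.4%, whereas 43.2% of the other autosomal peaks were. The share in the arms was higher for isolated than for other peaks on all 5 autosomes, by 15.6 percentage points on chromosome IV and by 32.0 on chromosome I. Seen from the whole list, 6.14% of autosomal arm peaks and 2.54% of centre peaks were isolated. The sparsest part in isolated peaks was the middle 20% of the autosomal span, where 27 of 1455 peaks, or 1.86%, were isolated. Of the 1066 peaks in the leftmost 20% of the span 63 were isolated, or 5.91%, and of the 1066 in the rightmost 20% 86 were, or 8.07%.

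X had the opposite order. There 65 of 133 isolated peaks lay in the arms, or 48.9% with an interval from 40.1% to 57.7%, against 65.3% of the other X peaks. In the centre of X 34.3% of the peaks were isolated, with an interval from 27.8% to 41.4%, and in its arms 21.0%, with an interval from 16.6% to 25.9%. Along X, from left to right in steps of 20% of the span, the share of isolated peaks was 16.5%, 24.1%, 34.1%, 43.2% and 23.5%. The rule takes more peaks where the list is sparse. Arms and centres are of equal length here, and the list held 310 peaks in the arms of X against 198 in its centre, but 2768 in the autosomal arms against 3504 in the centres.

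**Figure D2:**
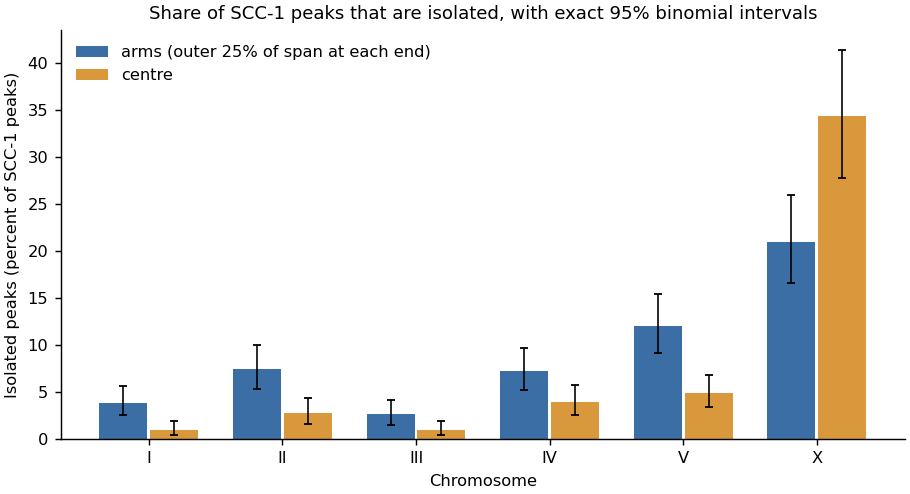
Percent of SCC-1 peaks that were isolated in the arms (blue) and the centre (orange) of each chromosome, with exact 95% binomial intervals as bars. Arms are above the centre on the 5 autosomes, for example 12.0% against 4.88% on chromosome V, and X shows 21.0% in the arms against 34.3% in the centre.

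The distances around isolated peaks, which the rule used, are given as a description. The median distance to the nearer neighbour was 31.5 kb, with quartiles of 24.4 and 44.3 kb and a maximum of 156 kb, and the median distance to the farther neighbour was 61.8 kb. The nearer neighbour was within 30 kb for 178 of the 392. Isolated peaks of X stood farther from their nearer neighbour, with a median of 37.9 kb against 29.1 kb on the autosomes. A nearer neighbour beyond 50 kb was found for 43 of 133 isolated peaks on X, or 32.3%, and for 43 of 259 on the autosomes, or 16.6%.

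In 7 cases the nearer neighbour was more than 100 kb away. The most isolated peak of the genome was X:7500732-7501457, 726 bp wide with a score of 277, which had 167 kb of distance on its left and 156 kb on its right. It was followed by a peak on X, X:9605041-9608105, 3065 bp wide with a score of 3100, whose nearer neighbour was 137 kb away. On chromosome V the most isolated peak was V:2255043-2255794, 752 bp wide with a score of 147, at 119 kb. On chromosome II it was II:1661084-1661929, which was 846 bp wide and had a score of 3100, at 108 kb. The most isolated peaks thus included both narrow, low-scoring calls and calls at the top of the score range.

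On the remaining autosomes the most isolated peaks stood 77.2 to 94.4 kb from their nearer neighbour. They were I:14263726-14264704, 979 bp wide with a score of 289, III:9224867-9229293, 4427 bp wide with a score of 3100, and IV:12930698-12932933, 2236 bp wide with a score of 512. The largest single distance beside an isolated peak was 405 kb, to the right of V:2799339-2800045, a peak of 707 bp with a score of 247.

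Some isolated peaks had another isolated peak as a direct neighbour. When all peaks were linked at distances of 20 kb or less, the list fell into 1416 groups, of which 394 held a single peak, 237 held a pair and the largest held 44. The 392 isolated peaks formed 246 runs with no other peak in between, and 228 of them, or 58.2%, had another isolated peak as a direct neighbour. On X 107 of 133, or 80.5%, did so, and on the autosomes 121 of 259, or 46.7%. By the rule, such a neighbour needs only 1 further distance over 20 kb, and 47.5% of all distances on X exceeded 20 kb, against 18.7% on the autosomes. Of the 1410 distances over 20 kb in the list, 146 lay between a pair of isolated peaks and 492 beside 1 isolated peak.

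The 3 longest runs, with ties in number decided by length, lay on X. The longest held 8 isolated peaks between X:9465119 and X:10058044, a stretch of 593 kb, and 3 of these had a score of 3100. Their widths were 1378, 3065, 814, 745, 1799, 6282, 799 and 3629 bp from left to right. The next held 6 peaks in 296 kb, from X:11987636 to X:12283439, all between 697 and 882 bp wide and with scores from 103 to 1140. There were 7 runs of 5 peaks, and the longest of these spanned 299 kb from X:13143713 to X:13442809, with widths from 663 to 1887 bp and scores from 52.9 to 1280. Runs of isolated peaks thus mixed broad and narrow peaks in the first case and held narrow peaks alone in the second.

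Isolated peaks were narrower than the rest of the list. Their median width was 933 bp, with an interval from 888 to 1018 bp, quartiles of 749 and 1626 bp, and single peaks ran from 362 to 13891 bp. All other peaks had a median of 1234 bp, with an interval from 1211 to 1258 bp. Peaks with a distance over 20 kb on 1 side had a median of 1179 bp, and those with none had 1262 bp. Of the isolated peaks 54.1% were under 1 kb wide, against 35.5% of the others. The isolated peaks together covered 614 kb, and the other peaks 11260 kb.

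Because X peaks are narrow as a class and X holds many isolated peaks, the pooled difference of -301 bp mixed chromosomes. Within chromosomes the median of isolated peaks was lower on all 6, but by very different amounts, from -348 bp on chromosome I to -18 bp on X. On the autosomes together it was 1058 bp, with an interval from 941 to 1135 bp, against 1264 bp for the others. On X it was 810 bp, with an interval from 779 to 869 bp, against 828 bp, a difference inside the interval. On chromosomes III and IV the intervals of the isolated peaks, from 894 to 1572 bp and from 957 to 1448 bp, also held the medians of the others, 1274 and 1256 bp. On chromosome II the interval from 830 to 1499 bp likewise held the other median of 1305 bp.

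Arms and centres of the autosomes were also read apart. In the arms the median width was 980.5 bp for 170 isolated peaks, with an interval from 920 to 1083 bp, and 1154 bp for the others. In the autosomal centres it was 1390 bp for 89 isolated peaks, with an interval from 933 to 1900 bp, and 1368 bp for the others. The difference between arms and centres in this respect was not tested, and the centre interval is wide.

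Within broad classes of score autosomal isolated peaks were narrower too. All peaks were ranked by score and split into 4 classes of equal number. Scores still varied within a class, and arms and centres were pooled here. In the class of lowest scores the autosomal isolated peaks had a median of 710.5 bp against 801 bp, and in the next 902 against 1087.5 bp. In the third class the medians were 1055 bp, with an interval from 938 to 1405 bp, and 1541 bp. In the highest class they were 2124 bp, with an interval from 1646 to 2693 bp, and 2682 bp, so the other median lay inside the interval by a small margin. On X the medians differed by 114 bp or less in each class, and in the highest class the isolated peaks were wider, 1640 against 1621 bp. Width and score rose together among isolated peaks, with a Spearman rho of 0.787 over 392 peaks, close to the 0.761 over the others. Both values come from the same library and the same peak calls, so no test is attached.

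**Figure D3:**
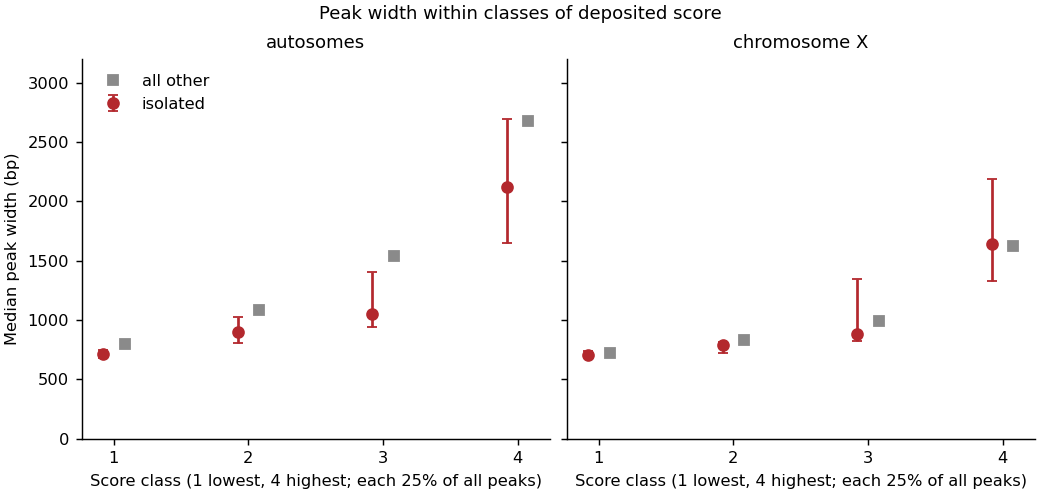
Median width in bp of isolated peaks (red, with order-statistic 95% intervals) and of all other peaks (grey) in 4 classes of deposited score, for the autosomes (left) and X (right). On the autosomes the red points lie below the grey in each class, from 710.5 against 801 bp to 2124 against 2682 bp, and on X the gaps are 10 and 44.5 bp in the lower classes and 114 bp in the third (882 against 996 bp), with red above grey in the highest.

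A larger share of isolated than of other peaks had scores at the top of the range. The authors' caller gave each peak this score on a scale that is not named, and values pile up at 3100, so scores are used only to rank and group peaks within this list. The median score was 459 for isolated peaks, with an interval from 374 to 604, and 495 for all others, inside that interval. The upper quartile was 2615 for isolated peaks and 2004 for the others. Scores of 3100 or more were found for 93 of 392 isolated peaks, or 23.7% with an interval from 19.6% to 28.3%, and for 1146 of 6388 others, or 17.9% with an interval from 17.0% to 18.9%. This share was not particular to isolated peaks. It was 24.8% for peaks with the nearer neighbour at 5 to 10 kb and 23.4% at 10 to 20 kb. At 2 to 5 kb it was 20.6%, and below 2 kb it was 6.55%. The third score class, from 493.47 to 2036.11, held 19.6% of the isolated peaks and 25.3% of the others.

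On X the median score was 381 for isolated peaks, with an interval from 257 to 526, and 250 for the others, with an interval from 197 to 311 that overlapped the former. Scores of 3100 were reached by 25 of 133 isolated X peaks, or 18.8% with an interval from 12.5% to 26.5%, and by 35 of 375 others, or 9.33% with an interval from 6.59% to 12.7%, a small overlap. Isolated peaks therefore made up 41.7% of the 60 X peaks at that score, with an interval from 29.1% to 55.1%, beside 26.2% of all X peaks. The share at 3100 was 5.73% for X peaks with no distance over 20 kb and 12.0% for those with 1. In the arms of X 16 isolated peaks reached 3100, or 24.6% with an interval from 14.8% to 36.9%. Of the other peaks there 9.39% did, with an interval from 6.04% to 13.8%. In the centre 9 isolated peaks did, or 13.2% with an interval from 6.23% to 23.6%. Of the other centre peaks 9.23% did, with an interval from 4.86% to 15.6%. The intervals thus lay apart in the arms only, and those of isolated peaks in arms and centre overlapped.

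On the autosomes 68 of 259 isolated peaks had a score of 3100 or more, or 26.3% with an interval from 21.0% to 32.1%, against 18.5% of the others. The single chromosomes differed. Chromosome IV had 35.4% of its isolated peaks at this level against 20.7% of its others, and chromosome V had 27.4% against 16.7%. On chromosome II the shares were 25.9% and 20.6%, on chromosome III 17.4% and 17.4%, and on chromosome I the order was the opposite, 12.1% and 17.4%. In median score the isolated peaks were above the others on 4 chromosomes and below them on I and V. The interval of the isolated peaks excluded the other median on chromosome III, where it ran from 604 to 2225 around 1017, against 524. It did so by a small margin on X too, from 257 to 526 against 250. On chromosome I the interval from 145 to 588 held the other median of 556.

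**Figure D4:**
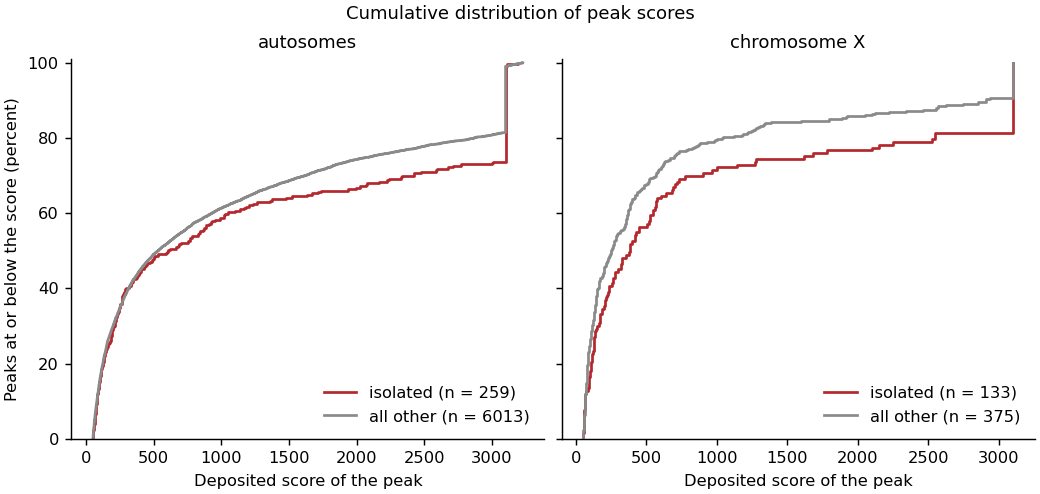
Percent of peaks at or below each deposited score, for isolated peaks (red) and all other peaks (grey) on the autosomes (left) and X (right). On the autosomes the curves part in the upper range. On X they part at low scores, as 29.3% of isolated and 38.4% of other peaks scored 147.94 or less. The step at 3100 holds 18.8% of the isolated X peaks against 9.33% of the other X peaks.

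The same list was also read by the distance to the nearer neighbour. On the autosomes the median width was highest, 1470.5 bp, at 2 to 5 kb, and was 1348.5 bp at 5 to 10 kb. It was 1195.5 bp at 10 to 20 kb, with an interval from 1130 to 1283 bp. At 20 to 30 kb it was 1079 bp, with an interval from 979 to 1210 bp. It was 1109.5 bp at 30 to 50 kb, with an interval from 915 to 1588 bp, and 846 bp beyond 50 kb. The bins on either side of 20 kb had overlapping intervals, so no clear step in width was seen at the threshold. Below 2 kb the autosomal median was 1054 bp, with an interval from 1028 to 1082 bp, beside 1058 bp for all autosomal isolated peaks. Midpoints less than 2 kb apart limit the joint width of neighbours that do not overlap, and the effect on the median was not tested. On X the median width stayed between 772 and 823 bp in every bin from 5 kb upward. The autosomal share at a score of 3100 or more was 6.62% below 2 kb, 21.1% at 2 to 5 kb, 26.1% at 5 to 10 kb and 25.3% at 10 to 20 kb. Among isolated peaks it was 28.7% at 20 to 30 kb, 26.3% at 30 to 50 kb and 18.6% beyond 50 kb. The intervals overlapped from 5 kb upward, so the autosomal contrast of 26.3% with 18.5% is not particular to isolated peaks and includes the low share of the closest peaks. On X it was 13.7% at 10 to 20 kb, 16.7% at 20 to 30 kb and 23.3% beyond 50 kb, with intervals that overlapped.

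**Figure D5:**
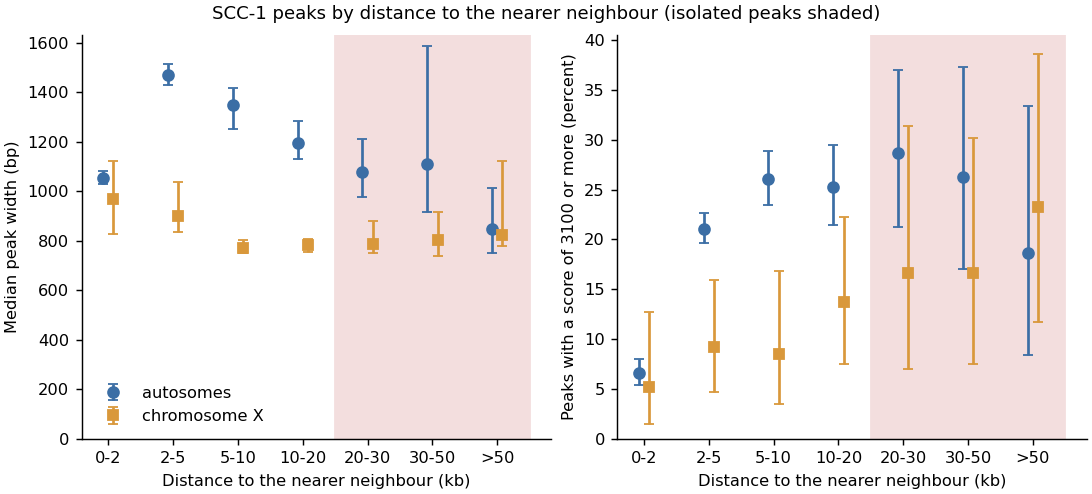
Median width in bp (left) and percent of peaks with a score of 3100 or more (right) by distance to the nearer neighbour in kb, for the autosomes (blue) and X (orange), with 95% intervals; the shaded bins hold the isolated peaks. Autosomal width is 1470.5 bp at 2 to 5 kb, 1195.5 bp at 10 to 20 kb, 1079 bp at 20 to 30 kb, 1109.5 bp at 30 to 50 kb and 846 bp beyond 50 kb.

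The threshold divided peaks of like distance. Just inside it lay X:1523865-1524615, 751 bp wide with a score of 59.0, whose nearer neighbour was 20.022 kb away. It was followed by IV:9021047-9021859, 813 bp wide with a score of 190, at 20.0645 kb, and III:7549486-7551057, 1572 bp wide with a score of 531, at 20.154 kb. Just outside lay V:4004381-4005161, 781 bp wide with a score of 773, at 19.995 kb. The next were I:6314308-6320694, 6387 bp wide with a score of 3100, at 19.9565 kb, and II:385783-386648, 866 bp wide with a score of 976, at 19.9355 kb.

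A minority of isolated peaks were broad domains. Of the 392, 19 were 5 kb or wider, or 4.85% with an interval from 2.94% to 7.47%, close to the 4.45% of all other peaks, and 17 of the 19 had a score of 3100. The widest was II:14598619-14612509, 13891 bp wide, with neighbours 41.6 and 30.1 kb away. It was followed by II:11773868-11785505, 11638 bp wide, whose nearer neighbour was 20.3 kb away between midpoints. For broad peaks the distance between edges is much shorter than that between midpoints. Next came X:16929142-16940096, 10955 bp wide, with 62.0 kb to its left and 202 kb to its right. All 3 had a score of 3100.

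Next in width were IV:4441637-4450969 with 9333 bp and V:4729311-4737217 with 7907 bp, also at a score of 3100. The former had a second broad isolated peak as its direct neighbour, IV:4467449-4474430 with 6982 bp, 24.6 kb away between midpoints. On X 4 of the 7 peaks of 5 kb or wider were isolated, and on the autosomes 15 of 296, or 5.07%. The interval of the X share, from 18.4% to 90.1%, held the 26.2% of all X peaks that were isolated.

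Scores above 3100 were rare in the whole list, found for 2 of 392 isolated peaks and 55 of 6388 others. The highest among isolated peaks was 3190, for IV:9146310-9148908, 2599 bp wide with neighbours 40.1 and 43.7 kb away. The other was 3109, for V:12343024-12344158, 1135 bp wide with neighbours 24.7 and 30.5 kb away. Ranked next, by width among the 91 isolated peaks at exactly 3100, were the 5 widest peaks named above, IV:11520371-11528213 with 7843 bp, II:9886109-9893608 with 7500 bp and the second broad peak of the pair on chromosome IV. Narrow peaks also reached this level. Of 93 isolated peaks with a score of 3100 or more, 27 were under 1500 bp wide, or 29.0%, against 14.1% of the 1146 others. On X these shares were 32.0% and 37.1%, in the opposite order.

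At the other extreme the narrowest isolated peak was V:18412324-18412685, 362 bp wide with a score of 62.6, and also the narrowest peak of the list. X:5518261-5518772 followed with 512 bp and a score of 55.1, and its right neighbour was 229 kb away. V:11390895-11391438 had 544 bp and a score of 86.7, II:15165739-15166287 had 549 bp and a score of 137, and X:10377523-10378097 had 575 bp and a score of 66.0. All 5 had scores in the lowest class, which ended at 147.94. That class held 25.8% of the isolated peaks and 24.95% of the others.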

How the data were processed

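BWA and the build ce10 are named in the submitters' processing notes. Peaks were called with MACS on WormBase WS220, per the file headers. Its version, its threshold and any use of the input remain not given in the sources used here. For each peak the deposited list gives a start, an end and a score, which is the authors' own value of unnamed scale. Positions are 1-based on WS220. The reference gene table is of another build, so no peak was assigned to a gene, and no sequence of WS220 was used here. A further score column, in 1 file whose name gives another target and antibody, was not used.

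Peaks were sorted by midpoint and classed by the distances to both neighbours. Named peaks were the most isolated of each chromosome, the 10 highest by score, the 5 widest and narrowest, the 3 longest runs, and 3 on each side of the threshold; the peak beside the largest distance and others over 100 kb were chosen after their values were seen. The rule, the classes and the alternatives were chosen with earlier results of these data known. Python 3.11.15, numpy 2.4.6, pandas 2.3.3, scipy 1.17.1 and matplotlib 3.10.9 were used, and the classification was tested on simulated lists.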

Additional observations from a re-analysis of the deposited data

How the results depend on the processing

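Of 53 recomputed values 35 stayed within the interval of the reported value (for the number of peaks, within 1.5 times). For a difference, this was the interval of the isolated peaks minus the fixed value of the others. It leaves out the counting error of the others. The 392 isolated peaks became 589 with a distance of 15000 bp, 214 with 30000 bp, 597 in the top 50% of peaks by score and 259 without X. The share on X was 28.4%, 42.5% and 19.1% under the first 3 of these, against 33.9%. The difference in median width of -301 bp was -363 bp in the top 50%, -206 bp without X, -178 bp as the mean within chromosomes and -18 bp on X alone. The difference in median score of -35.5 was 441 in the top 50%, 113 as the mean within chromosomes and 131 on X alone. Its interval included 0. The difference in the share in arms, 15.4 percentage points, was 22.4 without X and -16.5 on X alone, which reverses it. The share at a score of 3100 or more, 23.7%, was 41.0% in the top 50% and 18.8% on X alone. Values on X alone and mean shares within chromosomes were chosen after seeing the data. Taking the top 50% removes neighbours and low scores by construction; other causes were not tested. Distances from edge to edge, joining peaks within 500 bp of each other and leaving out 1 Mb at each end moved none of the 6 results beyond its interval. With distances from edge to edge 341 peaks were isolated. No paired analysis was possible because there was 1 ChIP library and a peak list was analysed for it alone. Without read counts, an isolated peak cannot be told from 1 whose neighbours were missed at this depth.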

Other observations

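Isolated peaks were found in most parts of the chromosomes. In windows of 1 Mb the median number was 3. Of 103 windows 5 held 10 or more isolated peaks, 3 of them on X and 2 on the autosomes, and 9 held none, all on autosomes. The empty windows included the last of chromosome I, from 15 to 16 Mb, which the span only partly filled and which held 11 peaks. The fullest window was X from 12 to 13 Mb, where 13 of 22 peaks were isolated. Next came IV from 15 to 16 Mb with 12 of 39 and X from 13 to 14 Mb with 12 of 27. These windows were named after their counts were seen.

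Of the 19 isolated peaks of 5 kb or wider, 2 had a score under 3100, both on chromosome V. V:3434406-3441353, 6948 bp wide, had a score of 215, with its nearer neighbour 68.4 kb away. V:4686496-4694245, 7750 bp wide, had a score of 1520, and its nearer neighbour, 42.9 kb away, was the isolated peak V:4729311-4737217, of 7907 bp. These peaks were chosen after their values were seen.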
